A study of Mus musculus with 30 samples.

Results

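The genes described here are 9 contractile genes of fast skeletal muscle fibres, Myh1, Myh2, Myh4, Actn3, Pvalb, Tnnt3, Tnni2, Tnnc2 and Myoz1. They were chosen by name, and all 9 had an entry, found by mouse Entrez gene number, among the 16475 gene entries of the deposited table. None of the 9 was called different between any of the 3 groups of mice compared here. They differed from one another in how far their intensities varied between mice: Myh2 and Myh4 ranged over more than 2-fold within the study, while the 3 troponins, Actn3 and Pvalb stayed within 1.15-fold. The troponins, Actn3 and Pvalb lay near the top of the intensity scale, where spreads were small in general. The median SD (log2) was 0.0582 for the 34 highest entries, the 9 genes among them, beside 0.190 for the 6844 entries above 20 on at least 5 arrays. Myh2 followed the level of slow fibre genes from mouse to mouse in every group.

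Fast fibres shorten quickly because of the myosin heavy chain they build their thick filaments from, and adult mouse limb muscle uses 3 fast ones, encoded by Myh2 (type IIA), Myh1 (type IIX) and Myh4 (type IIB). Type IIA fibres are the most oxidative of the fast fibres and type IIB fibres the most glycolytic. On the thin filament, the fast isoforms of troponin T, I and C switch contraction on when calcium rises; parvalbumin removes calcium from the cytosol, and alpha-actinin-3 and myozenin-1 belong to the Z-disc that anchors the filaments. The mouse quadriceps is largely fast, with slow fibres in its deep part.

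The 3 fast myosin heavy chain genes lie side by side on chromosome 11, in the order Myh3, Myh2, Myh1, Myh4, Myh8 and Myh13 in the RefSeq annotation. Their promoters are shown because no pair of these neighbours was called as rising together between mice. Each is the 300 bases around the RefSeq start site on the plus strand of GRCm38.p6, at chr11:67170777-67171076 for Myh2, chr11:67199852-67200151 for Myh1 and chr11:67237562-67237861 for Myh4. Capitals mark matches to the motifs searched.
Myh2: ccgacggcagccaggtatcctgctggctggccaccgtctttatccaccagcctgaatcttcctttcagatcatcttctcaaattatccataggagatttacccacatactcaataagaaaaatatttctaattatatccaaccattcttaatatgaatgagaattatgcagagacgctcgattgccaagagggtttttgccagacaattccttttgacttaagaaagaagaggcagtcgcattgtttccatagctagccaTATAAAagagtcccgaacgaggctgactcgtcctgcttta
Myh1: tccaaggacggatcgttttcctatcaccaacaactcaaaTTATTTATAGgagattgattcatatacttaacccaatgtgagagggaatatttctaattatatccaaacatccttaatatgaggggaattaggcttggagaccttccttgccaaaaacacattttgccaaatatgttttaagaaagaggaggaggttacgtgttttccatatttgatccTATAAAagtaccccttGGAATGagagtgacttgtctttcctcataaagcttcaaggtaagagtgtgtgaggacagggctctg
Myh4: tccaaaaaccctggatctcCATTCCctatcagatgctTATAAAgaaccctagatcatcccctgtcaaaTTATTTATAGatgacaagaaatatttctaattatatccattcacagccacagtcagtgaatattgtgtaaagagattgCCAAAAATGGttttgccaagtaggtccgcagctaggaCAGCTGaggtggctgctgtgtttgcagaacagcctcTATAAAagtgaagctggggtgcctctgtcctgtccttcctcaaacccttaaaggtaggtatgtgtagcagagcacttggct
The search covered both strands for the MEF2 consensus, the TATA box TATAAA, the E box CAGCTG, the M-CAT element CATTCC, the MEF3 element TCAGGTT and the CArG box. The MEF2 consensus and the TATA box can overlap. Myh4 held a MEF2 match 182 bases before the start, a CArG match, an E box, an M-CAT match and 3 TATA boxes. Myh1 held a MEF2 match 211 bases before the start, a TATA box overlapping it, another TATA box 32 bases before the start and an M-CAT match on the minus strand. Myh2 held a single TATA box, 10 bases past the annotated start. Among 32544 distinct promoters of the same length, 3.16% held the MEF2 consensus, 13.6% the TATA box, 16.4% the E box, 14.6% the M-CAT element, 4.07% the MEF3 element and 1.64% the CArG box. These are matches of letters in 1 window and no measure of binding. RefSeq promoters were at hand for 5 of the 9 genes, the others being Pvalb and Tnnc2.

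Quadriceps RNA of 30 male mice, of the strain written C56BL/6J in the labels, was measured with 1 mouse per biotin-labelled array. All mice went onto a low fat (LF) diet at 9 weeks of age for a run-in of 3 weeks. Of these, 10 were killed at the end of the run-in at 12 weeks of age (LF day 0), 10 stayed on the LF diet for 56 days (LF day 56) and 10 received a high fat (HF) diet for 56 days (HF day 56), both to 20 weeks of age. Assignment to the diets was random. The comparison of the diets at day 56 asks what the HF diet does to muscle, and in HF day 56 against LF day 0 the diet and the added age cannot be told apart.

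Each value is a linear array intensity on the authors' common scale, and 6334 to 6563 entries per array exceeded an intensity of 20. The 5 muscle-defining markers (Ckm, Acta1, Des, Ttn and Mb) exceeded 20 on all 30 arrays. The ratio of 5' to 3' signal of added control RNAs parted the arrays, at its widest gap, into a larger spike-in set of 21 and a smaller one of 9, with 3 arrays of each group in the smaller set. S100a8, a neutrophil gene, exceeded 100 on 17 arrays (7 LF day 0, 4 LF day 56 and 6 HF day 56), and the summed level of 8 neutrophil markers ran from 40.4 to 10318 in LF day 0, from 38.4 to 2613 in LF day 56 and from 38.0 to 13447 in HF day 56. In such whole-muscle RNA, fewer fibres of a type and less RNA per fibre cannot be told apart.

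Myh2, the type IIA heavy chain, spread most. Its intensity ran from 7151 through a median of 9241 to 11722 in LF day 0, from 5935 through 10973 to 12815 in LF day 56, and from 7246 through 11000 to 14855 in HF day 56. Both day 56 medians lay above that of day 0, but each group held mice near the bottom of the range and the groups overlapped over most of it. Myh4, the type IIB heavy chain, ran from 8078 through 12654 to 16264 in LF day 0, from 9494 through 13277 to 17470 in LF day 56, and from 7763 through 12994 to 17141 in HF day 56. The lowest Myh4 of all 30 mice, HF day 56 replicate 2, was also the mouse with the highest Myh2. Myh1, the type IIX heavy chain, had a narrower range: 9682 through 11025 to 12161 in LF day 0, 9063 through 10997 to 12074 in LF day 56, and 10134 through 10665 to 12096 in HF day 56. The 3 heavy chains are close in sequence, so their array signal may be shared in part.

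**Figure D1:**
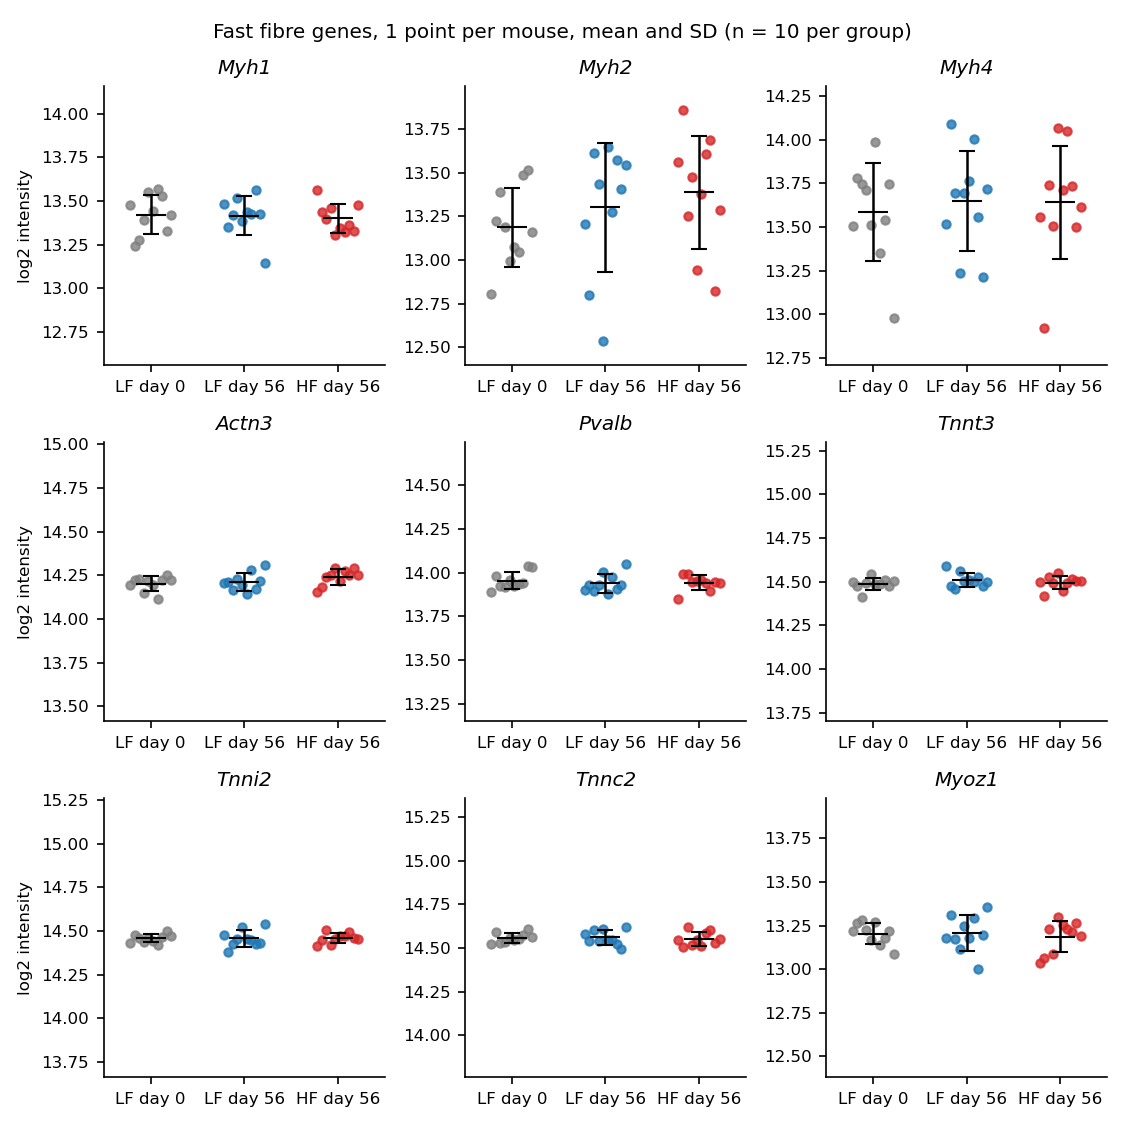
Log2 intensity of the 9 genes (y axis, the same span of 1.6 log2 units in every panel, centred on each gene) in the 3 groups (x axis), 1 point per mouse, with the mean and the SD of 10 mice in black. The groups overlap for every gene, and the points of Myh2 and Myh4 spread far more than those of the troponins, Actn3 and Pvalb.

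The intensities of the 3 fast troponin genes, among the highest of each array, varied little. Tnnt3, which encodes the tropomyosin-binding subunit, ran from 21777 through 23044 to 23917 in LF day 0, from 22559 through 23241 to 24668 in LF day 56 and from 21889 through 23232 to 23947 in HF day 56. Tnni2, the inhibitory subunit, had medians of 22569, 22417 and 22530 in the same order, and extremes of 21335 and 23871, both in LF day 56. Tnnc2, the calcium-binding subunit, had medians of 24085, 23942 and 23908 and extremes of 23122 (LF day 56) and 25221 (HF day 56). For all 3 subunits the medians of the groups lay closer together than the mice of any group.

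The Z-disc genes and parvalbumin behaved alike in this respect. Actn3, the fast fibre alpha-actinin, had medians of 19092 in LF day 0, 18965 in LF day 56 and 19488 in HF day 56, within extremes of 17753 and 20345. Pvalb, the calcium buffer, had medians of 15687, 15579 and 15800 in that order, within extremes of 14758 and 16932. Myoz1, which tethers calcineurin to the Z-disc, had medians of 9532, 9327 and 9552 and extremes of 8205 and 10500, both in LF day 56. No group of any of these genes stood clear of another.

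Against that spread, the HF diet gave no called difference. Between HF day 56 and LF day 56, limma called 0 of the 9 genes at a Benjamini-Hochberg adjusted p below 0.05, and 0 had an unadjusted p below 0.05. Of all 16475 entries, 4 were called (0.0243%), and 841 had an unadjusted p below 0.05. The largest difference was that of Myh2, 0.084 ± 0.133 (SE, log2, n = 10 per group), 5.98% higher on HF with a 95% confidence interval of -12.2% to 27.9%. Myh4 differed by -0.0091 ± 0.126, an interval of -16.9% to 18.8%. The other 7 had narrower intervals, among them -7.90% to 6.27% for Myh1, -7.34% to 5.12% for Myoz1 and -2.61% to 6.73% for Actn3. For the troponins the intervals were narrower still, -5.30% to 3.21% for Tnnt3, -3.92% to 4.56% for Tnni2 and -4.77% to 3.76% for Tnnc2. The troponin values lay at the top of the intensity scale, where spreads were small in general. How far that place narrows these intervals was not tested. The lowest adjusted p of the 9 (limma) was 0.998.

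The comparisons with day 0 gave the same count. LF day 56 against LF day 0 had 0 of 9 genes called and 0 with an unadjusted p below 0.05, beside 140 of all entries called (0.85%, with 1668 at an unadjusted p below 0.05). Myh2 differed by 0.12 ± 0.133 (SE, log2, limma adjusted p = 0.849) and Myh4 by 0.063 ± 0.126. HF day 56 against LF day 0 again had 0 of 9 called and 0 with an unadjusted p below 0.05, beside 262 of all entries (1.59%, with 1815 at an unadjusted p below 0.05). Here Myh2 was at 0.20 ± 0.133, an interval of -4.86% to 38.5% (limma adjusted p = 0.653), the lowest adjusted p of any of the 9 genes in any comparison. Both comparisons share the LF day 0 mice. The median difference of the 9 genes was -0.0086 for the diets, 0.0030 for LF day 56 against day 0 and 0.0026 for HF day 56 against day 0, beside medians over all entries of 0.0029, 0.00089 and 0.0024.

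**Figure D2:**
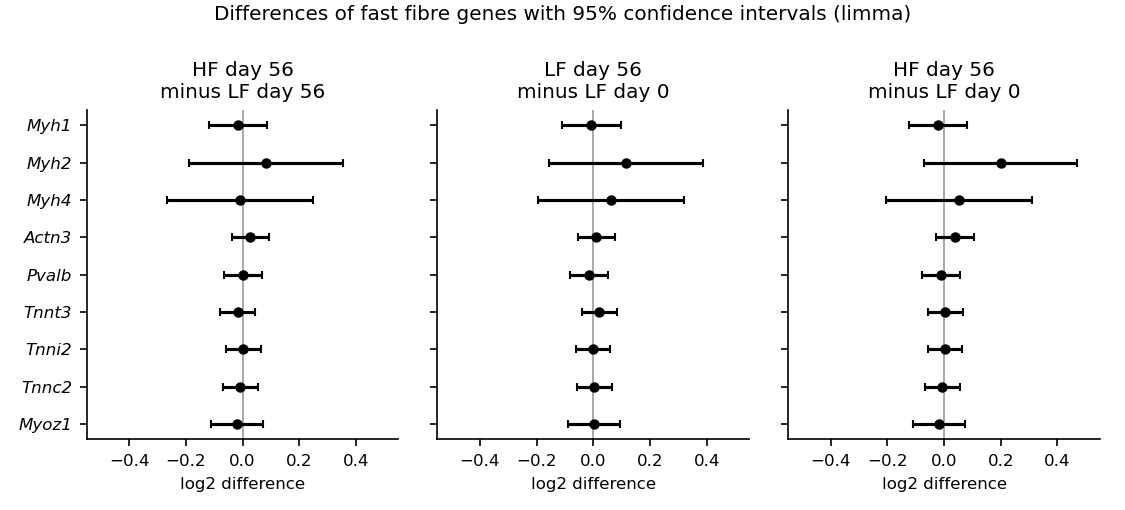
Log2 difference (x axis) of each of the 9 genes (y axis) in the 3 comparisons, points with 95% confidence intervals from limma, 10 mice per group. All intervals include 0, and those of Myh2 and Myh4 are the widest of the 9.

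The spread within groups divided the 9 genes clearly. The SD between mice, pooled over the groups on the log2 scale, was 0.312 for Myh2 and 0.296 for Myh4, larger than that of 84.8% and 82.5% of the 6844 entries above 20 on at least 5 arrays. Myh1, their neighbour on the chromosome, had an SD of 0.104, and Myoz1 one of 0.0867. The remaining 5 had SDs of 0.0350 (Tnni2), 0.0370 (Tnnc2), 0.0375 (Tnnt3), 0.0459 (Actn3) and 0.0485 (Pvalb), each larger than that of less than 0.3% of the same entries. The highest over the lowest mouse was 2.50-fold for Myh2, 2.25-fold for Myh4, 1.34-fold for Myh1 and 1.28-fold for Myoz1. Small spreads went with the top of the intensity scale. The 34 entries with a mean at or above that of the lowest of the 9 genes include these 9. The median SD of the 34 was 0.0582, beside 0.190 for all 6844. Each array's Tnnt3, Tnni2 and Tnnc2 ranked between 2nd and 6th of all entries. Some arrays shared identical values: Tnnt3 had 3 values that recurred, over 8 arrays in all, Tnni2 had 3, over 7 arrays, and Tnnc2 had 1, on 2 arrays. The highest value of the array was itself identical, at 28868.0, on 11 of the 30 arrays. How far the place on the scale limits what these intensities can show was not tested.

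The sets of arrays parted by spike-in signal differed in 3 of the 9 genes. With group in the fit, Myh4 was 0.40 ± 0.0882 higher (SE, log2) in the smaller set (limma adjusted p = 0.00109, n = 9 and 21), Myoz1 was 0.11 ± 0.0338 higher (adjusted p = 0.0128) and Myh1 was 0.12 ± 0.0393 lower (log2 difference -0.12, adjusted p = 0.0215). The other 6, Myh2 among them at -0.017 ± 0.120, were not called. Of all entries, 23.1% were called between these sets, so 3 of 9 is near the background. The pooled SD of Myh4 given above includes its difference between the sets. Within the larger and smaller set the SD (log2) was 0.243 and 0.167 for Myh4, beside 0.330 and 0.284 for Myh2. Each set held the 3 groups in equal shares, and relations between genes are therefore given within the sets as well.

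**Figure D3:**
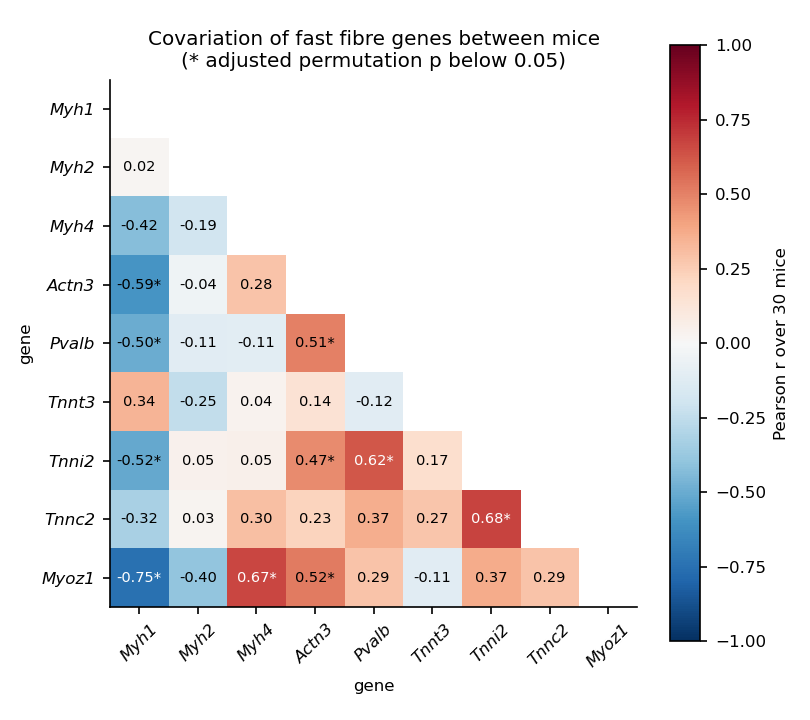
Pearson r over 30 mice for the 36 pairs of the 9 genes (rows and columns), coloured from -1 to 1, with an asterisk where the adjusted permutation p is below 0.05. Myh1 is negative with Myoz1, Actn3, Tnni2 and Pvalb, and Tnni2 is positive with Tnnc2, Pvalb and Actn3, while the row and column of Myh2 hold no asterisk.

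Between mice, the 9 genes did not rise and fall as 1 group. Of their 36 pairs, 10 covaried at an adjusted p below 0.05 (two-sided permutation test of 100000 resamples, Benjamini-Hochberg over the 36 pairs), 6 of them positively and 4 negatively, and 14 had an unadjusted p below 0.05. An r of at least 0.5 in size was found for 8 of the 36 pairs (22.2%), beside 9.41% of all pairs of the 6844 entries and 18.5% of the pairs of the 34 entries of like intensity. The share of the 9 genes was thus near that of entries of like intensity, which include the 9 genes. The share of all pairs that would be called by adjusted p was not computed. Within the larger set of arrays, 2 of the 36 pairs were called, and within the smaller set 0, where 5 pairs had an unadjusted exact permutation p below 0.05. All 10 pairs kept their sign in both sets. The count depended on the scaling: with each array centred on its median, 18 pairs were called, 16 positive and 2 negative, and after quantile normalization 2, 1 of each sign.

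Myh1 and Myoz1 moved in opposite directions. Their r was -0.748 (rho = -0.752, permutation p = 1e-05, the smallest 100000 resamples can give, adjusted p = 0.00036), and it was -0.703 without the 2 mice farthest from the Myh1 median. It was -0.614 in LF day 0, -0.859 in LF day 56 and -0.860 in HF day 56, -0.658 within the larger set and -0.490 within the smaller. After quantile normalization it was -0.470 and no longer called. Both genes also differed between the sets, in opposite directions. Myh1 was likewise negative with Actn3 (r = -0.590, rho = -0.530), Tnni2 (-0.515, rho = -0.499) and Pvalb (-0.496, rho = -0.438), none of which was called within either set. The mouse with the lowest Myh1, LF day 56 replicate 10 at 9063, had the highest Actn3, Pvalb, Tnni2 and Myoz1 of all 30. Without it, 6 pairs were called instead of 10: the pairs of Myh1 with Tnni2 and Pvalb and of Actn3 with Pvalb, Tnni2 and Myoz1 lost their call, and Myh2 with Myoz1 gained one (r = -0.490).

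The troponin I and C genes rose and fell together. Tnni2 and Tnnc2 had an r of 0.678 (rho = 0.655, adjusted permutation p = 0.00072), 0.665 without the 2 mice farthest from the Tnni2 median, and 0.698 and 0.676 within the larger and smaller sets. Within the groups it was 0.775, 0.687 and 0.684. After quantile normalization it was 0.196 and not called. Tnnt3, the troponin T gene, lies on chromosome 7 with Tnni2 but had an r of 0.170 with Tnni2 and 0.275 with Tnnc2, neither called. Pvalb was positive with Tnni2 (r = 0.620, rho = 0.560) and Actn3 was positive with Pvalb (0.506, rho = 0.536) and Tnni2 (0.472, rho = 0.471). None of these pairs with Pvalb or Actn3 was called within either set of arrays. Over 12 other settings, single sets and groups included, they were called in 5, 3 and 5, in the same order. Their correlations there ran from 0.339 to 0.804, from 0.193 to 0.804 and from 0.225 to 0.876. Without HF day 56 replicate 1, which had the lowest Pvalb of all mice, the pairs of Pvalb with Actn3 and Myh1 and of Actn3 with Tnni2 lost their call, leaving 7.

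Myh4 covaried with Myoz1 at an r of 0.666 (rho = 0.700, adjusted permutation p = 0.00108) over the 30 mice. The relation did not hold within both sets of arrays: r was 0.505 within the larger (adjusted p = 0.0935, not called) and 0.023 within the smaller. It was 0.920 in LF day 0, 0.558 in LF day 56 and 0.681 in HF day 56. Actn3 and Myoz1 had an r of 0.519 (rho = 0.458), with 0.332 and 0.356 within the sets.

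No pair of the neighbouring heavy chain genes was called as covarying positively. Myh1 and Myh2 had an r of 0.020 (rho = 0.050), and Myh2 and Myh4 one of -0.189 (rho = -0.010), neither called. Myh1 and Myh4 had an r of -0.422 (adjusted permutation p = 0.0669) and a rho of -0.560 (adjusted permutation p = 0.0113), with r of -0.260 within the larger set and 0.508 within the smaller. The signs in the sets were opposite, and the difference between them was not tested.

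**Figure D4:**
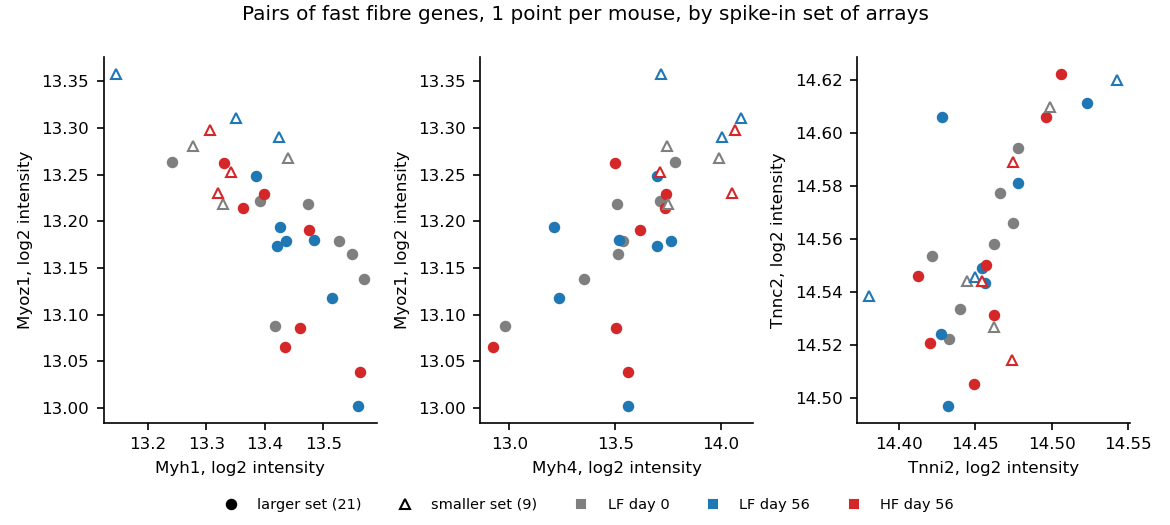
Log2 intensity of Myoz1 against Myh1, of Myoz1 against Myh4 and of Tnnc2 against Tnni2, 1 point per mouse, coloured by group, with filled circles for the larger spike-in set of arrays (21) and open triangles for the smaller (9). Myoz1 falls as Myh1 rises in both sets, the triangles lie towards high Myh4 and high Myoz1, and Tnnc2 rises with Tnni2 in both sets. Within the smaller set 0 pairs were called.

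Myh2 tracked the slow fibre genes. The slow fibre level was the mean log2 intensity of the 9 detected slow genes (Myh7, Tnnt1, Tnni1, Tnnc1, Myl2, Myl3, Atp2a2, Myoz2 and Casq2), and it ran from 4.66 to 9.40 over the mice. Myh7, the slow heavy chain, alone ran from an intensity of 3.2 to 842.6. Over the 30 mice Myh2 had an r of 0.870 with this level (rho = 0.779, permutation p = 1e-05, the smallest the resamples can give, adjusted p over the 9 genes = 9e-05). It was 0.848 within the larger set of arrays and 0.948 within the smaller (exact permutation p = 0.000345, n = 9), 0.816 in LF day 0, 0.934 in LF day 56 and 0.882 in HF day 56, and 0.843 without the 2 mice farthest from the median slow level. The 5 mice with a slow level of at most 5.19 were those with the 5 lowest Myh2 values, 5935 to 7865. The widest gap in the slow level, 0.682 (log2), parted these 5 mice from the others. The r without these 5 mice was not computed.

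In a fit of all 16475 entries with group as a factor, Myh2 rose by 0.175 ± 0.0186 (SE, log2) per log2 unit of slow level (limma adjusted p = 3.43e-07). Only 36 entries were called on this slope (0.219%), of which 34 rose and 9 were the genes of the level itself. 1387 entries had an unadjusted p below 0.05. None of the other 8 fast genes was called: their slopes lay between -0.064 ± 0.0332 (Myh4) and 0.0035 ± 0.0141 (Myh1). As correlations, Myoz1 was at -0.435 (adjusted permutation p = 0.0732) and Myh4 at -0.319 (adjusted p = 0.258), not called over the 30 mice. Within the larger set Myoz1 was called at -0.649 (adjusted permutation p = 0.00603). Within the smaller set Myoz1 was at -0.334 and not called, while Myh4 (-0.786, adjusted exact permutation p = 0.0453) and Tnni2 (0.750, adjusted exact permutation p = 0.0399) were; whether these values differ between the sets was not tested. Of the 10 measured slow genes 0 were called in each comparison; 9 of 10 had higher means in LF day 56 than in LF day 0 (median log2 difference 0.38) and 7 of 10 in HF day 56 (0.41), and the slow level was not itself tested between groups. Myh7b, which is among these 10 but not in the slow level, reached an intensity of at most 6.4.

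**Figure D5:**
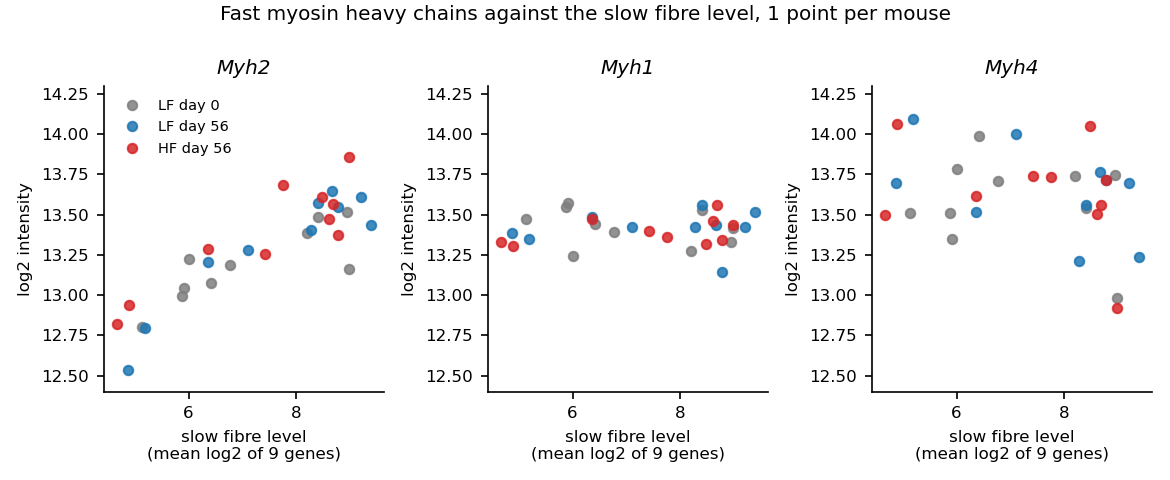
Log2 intensity of Myh2, Myh1 and Myh4 (y axis, 1 scale for the 3 panels) against the slow fibre level, the mean log2 intensity of 9 slow fibre genes (x axis), 1 point per mouse, coloured by group. Myh2 rises with the slow level in all 3 groups (r = 0.870 over 30 mice), Myh1 shows no slope (r = 0.044) and Myh4 is scattered (r = -0.319).

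Other genes of the fast programme were not called between the diets either. Of 10 further fast fibre genes, 8 were measured and 0 were called in any comparison; the diet difference with the smallest p was that of Gpd1, glycerol-3-phosphate dehydrogenase, at -0.17 ± 0.0998 (SE, log2, limma adjusted p = 0.998), followed by Tpm1 (0.078 ± 0.0701) and Ampd1 (0.051 ± 0.0507). The Tpm1 entry was the lowest of these 8, with a median intensity of 112 beside 1332 for the next, Mylk2. On the slow level, 0 of these 8 were called. Of the 10 slow fibre genes 0 were called between the diets, the smallest p being that of Casq2 (0.32 ± 0.204), Myl2 (-0.39 ± 0.770) and Tnnt1 (-0.37 ± 0.872). The latter pair had wide errors, and both ranged widely between mice of each group.

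Among 15 sarcomere genes shared by all fibre types, 0 were called between the diets and 1, Lmod3, was lower than in LF day 0 in both day 56 groups. Lmod3, a nucleator of thin filaments, fell by 0.20 ± 0.0482 (log2) in LF day 56 and by 0.44 ± 0.0482 in HF day 56 (limma adjusted p = 0.0320 and 8.42e-07), and its diet difference was -0.24 ± 0.0482 (adjusted p = 0.0693). Tpm2 (-0.086 ± 0.0366) and Myot (0.059 ± 0.0376) followed in the order of p. On the slow level, Actn2, the alpha-actinin of all fibres, and Lmod2 were called with slopes of 0.13 ± 0.0165 and 0.18 ± 0.0258, unlike Actn3. Of 18 measured regulators of fibre type 0 were called in any comparison; Sox6, a repressor of slow genes, had a diet difference of -0.12 ± 0.0719, Ppargc1a one of -0.23 ± 0.166 and Nfatc1 one of 0.074 ± 0.0568. Esrrg was the 1 regulator called on the slow level (0.15 ± 0.0282, limma adjusted p = 0.00787).

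Of 5 embryonic and perinatal contractile genes, 1 was called against day 0. Actc1, cardiac alpha-actin, fell by 0.77 ± 0.164 (log2) in LF day 56 and by 1.07 ± 0.164 in HF day 56 (limma adjusted p = 0.0124 and 0.000166), with a diet difference of -0.30 ± 0.164 that was not called. Tnnt2 (-0.21 ± 0.108) and Myh8, the perinatal neighbour of Myh4 (-0.091 ± 0.115), stayed at or below 20 on most arrays and were not called. Markers of other cells also moved in the comparisons with day 0: 10 of 10 fibroblast and tendon markers and 5 of 5 endothelial markers had lower means in each day 56 group, of which Col1a1, Col1a2, Col3a1, Tnmd, Fmod and the endothelial Cldn5 were called in both comparisons. All 4 adipocyte markers were called higher in HF day 56 than in LF day 0, and 0 of 4 were called between the diets. Summed adipocyte levels were 499.8 to 1271 in LF day 0, 766.6 to 1620 in LF day 56 and 642.1 to 3306 in HF day 56. The part of these other cells in the Lmod3 and Actc1 results was not tested.

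The entries outside the 9 genes whose levels went most closely with each of them are given as descriptions over the 30 mice, out of all entries above 20 on at least 5 arrays. For Myh2 they were Actn2 (r = 0.863), Myoz2 (0.862) and Ldhb (0.855), with r between 0.804 and 0.936 within the sets of arrays. For Myh4 they were Pkia (0.892), Serinc1 (0.876) and Cipc (0.867), the last at 0.038 within the smaller set. Those of Myoz1 were Ccdc91 (0.863), Slc37a4 (0.850) and Jsrp1 (0.844), and those of Myh1 were Matr3 (0.827), Ep300 (0.820) and Yme1l1 (0.800). Myoz1 and Myh1 both differed between the sets. Within the smaller set these r were 0.515, 0.671 and 0.551 for Myoz1 and 0.604, 0.608 and 0.751 for Myh1. Within the larger set they lay between 0.742 and 0.838. Actn3 went with Ampd1 (0.749), Smpdl3a (0.743) and Mybpc2 (0.709), of which Ampd1 and Mybpc2 are fast fibre genes themselves. Pvalb went with Ckm (0.719), the muscle creatine kinase, Dmap1 (0.668) and Tmod4 (0.664). Tnni2 and Tnnc2 shared Ash2l as their closest entry (0.812 and 0.691), followed by Pygm (0.687) and Gm5963 (0.660) for Tnni2 and by Nsun2 (0.678) and Cops5 (0.663) for Tnnc2, at 0.211 and 0.348 within the smaller set. For Tnnt3 they were Zcchc24 (0.697), Bmi1 (0.686) and Nfatc3 (0.671). These are the highest values of a search over all such entries, and no test was made.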

How the data were processed

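Quadriceps RNA of 30 mice was measured, 1 array each, and groups were taken from the labels. The authors' deposited values are linear intensities, 1 per gene on each array, from GCRMA per the submitters' processing notes (no version given). Of 16539 rows, 64 control rows were left out. Log2 intensities (pseudocount 0) went into limma 3.58.1 (R 4.3.3), with group as the factor over all 30 arrays and Benjamini-Hochberg adjustment over 16475 entries. Correlations used two-sided permutation tests (Python 3.11.15, numpy 2.4.6, scipy 1.17.1), exact for 9 arrays. Scripts were tested on simulated data. The number of arrays limits the precision. Ranks of entries describe the place on the intensity scale, not relative amounts of transcript.

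The genes, the lists and the rules were chosen with earlier results of these data known. Named were all 9 genes, of each list those called or else the 3 of smallest p between the diets, and the 3 entries most alike to each gene. Replicate numbers recur across groups, but every mouse is numbered on its own in the labels, and no pairing was used. Alternatives were other fits and priors, quantile normalization, median centring, a pseudocount of 1, a filter on low values, a replicate block, the spike-in sets, the slow fibre level as a covariate, leaving out arrays with S100a8 above 100, and leaving out each array. Promoters came from RefSeq (GRCm38.p6). Figures were drawn with matplotlib 3.10.9.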

Additional observations from a re-analysis of the deposited data

Results flagged for a closer look

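In 3 of 27 combinations of gene and group, the lowest mouse stood apart from the other 9 by more than the 95% critical value of Dixon's test, which chance exceeds in about 1 of 20 groups. Myh1 in LF day 56 was lowest in replicate 10, at 9063.1. That mouse also had the highest Actn3, Pvalb, Tnni2 and Myoz1 of all 30 mice. Myh4 in HF day 56 was lowest in replicate 2, at 7762.9, in the mouse with the highest Myh2, at 14855. Tnnt3 in LF day 0 was lowest in replicate 3, at 21777.0.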

How the results depend on the processing

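None of the 9 genes was called in any of the 3 comparisons under any of the 12 alternatives or with any 1 of the 30 arrays left out, while all entries called ran from 0 to 12, 11 to 214 and 0 to 384 over the alternatives. With the replicate block 0 of the 9 genes were called, and entries called were 1 (diets), 104 and 209; arrays of the same number correlated above 0.1 in 9 of 30 pairs, and 5 of 30 arrays correlated best with their own number. Differences moved by more than 1 SD between mice for Myh1 without arrays with S100a8 above 100 (-0.15 and -0.14 for LF and HF day 56 against LF day 0) and for Pvalb after quantile normalization (-0.065 for HF day 56 against LF day 0). The 10 pairs called were 2 after quantile normalization, 18 with median centring, 2 in the larger set, 0 in the smaller set, 2 without arrays with S100a8 above 100, and 4 without the 2 farthest mice. Alternatives chosen after seeing the data gave 6 with deviations from the set means, 4 in LF day 0 alone, 0 in LF day 56 alone and 1 in HF day 56 alone, and 6 to 11 with 1 array left out. All 10 kept their sign throughout. Of genes called with the slow level, Myh2 was called in all 12 alternatives; the count was 2 after quantile normalization, 2 in the larger set, 3 in the smaller set, 2 with deviations from the set means, and 1 to 2 with 1 array left out. Myoz1 was the gene gained after quantile normalization, in the larger set, with deviations from the set means, and without LF day 0 replicate 7, LF day 56 replicate 10 or HF day 56 replicate 6. Single groups hold 10 mice, which limits what they can show.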
